A study of Mus musculus with 8 samples.

Results

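A group of 8 genes of the interleukin-1 family is described here across cell types of the mouse colonic lamina propria: the ligands Il1a, Il1b, Il18 and Il33, the receptor antagonist Il1rn, the decoy receptor Il1r2, the receptor accessory chain Il1rap and the interleukin-18 binding protein Il18bp. They were taken by name and make up 8 of the 31053 genes in the deposited tables. Droplet single-cell RNA sequencing had been run on 8 libraries, with 2 libraries in each of 4 groups that the series' design text calls independent biological replicates. The mice were C57BL/6 and 10 to 12 weeks old, and were either wildtype or carried a serine-to-alanine substitution in RORgt, a transcription factor of Th17 cells and group 3 innate lymphoid cells, named S203A in the sample titles and S182A in the series text. The 2 DSS groups, wildtype and mutant, had 2% dextran sulfate sodium (DSS), an agent that damages the epithelium of the colon, in their water for 7 days, followed by 3 days of plain water. The 2 untreated groups, again wildtype and mutant, drank plain water for 10 days, and all mice were taken on day 10. In every group the lamina propria cells passed through a CD4+ T cell isolation kit, so the myeloid and stromal cells below are those that came through an enrichment meant for other cells, and their numbers are not those of the tissue. Nothing in the sources used here says whether cells of several mice were pooled.

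Interleukin-1 alpha and beta bind the same receptor, which signals only once the accessory chain encoded by Il1rap has joined it. The antagonist encoded by Il1rn occupies that receptor without signalling, and the product of Il1r2 binds the ligand and has no signalling domain, so both limit the response. Interleukin-18 is likewise held by a soluble binding protein, and interleukin-33, stored in the nuclei of stromal and barrier cells, acts on regulatory T cells and group 2 innate lymphoid cells through the receptor encoded by Il1rl1 together with the accessory chain. In the gut these cytokines are released by injured epithelium and stroma and by activated phagocytes.

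On the mm10 (GRCm38) assembly all 8 are protein-coding genes. Il1rn (chr2:24336853-24351494, plus strand), Il1a (chr2:129299610-129309972, minus strand) and Il1b (chr2:129364570-129371139, minus strand) lie on chromosome 2. Il1r2 lies at chr1:40074079-40125231 on the plus strand, Il1rap at chr16:26581704-26730117 on the plus strand, Il18 at chr9:50554827-50581840 on the plus strand, Il18bp at chr7:102014885-102018690 on the minus strand and Il33 at chr19:29925114-29960718 on the plus strand. The promoter windows of the 2 interleukin-1 ligands, their antagonist and Il33 are printed because the ligands and the antagonist were highest in the same classes of cells, whereas Il33 was highest in other ones. Each window holds 250 bases before and 50 bases after a RefSeq transcript start on GRCm38, in the direction of transcription, and Il33 has windows at 2 annotated starts. Capitals mark matches, on either strand, to TATAAA, the core promoter box, to TGANTCA, a site of the factor AP-1, to GGGNNNNNCC, one of NF-kB, or to GAGGAAG, one of the myeloid factor PU.1. These motifs were chosen after the windows had been seen.
Il1a, chr2:129309923-129310222, minus strand: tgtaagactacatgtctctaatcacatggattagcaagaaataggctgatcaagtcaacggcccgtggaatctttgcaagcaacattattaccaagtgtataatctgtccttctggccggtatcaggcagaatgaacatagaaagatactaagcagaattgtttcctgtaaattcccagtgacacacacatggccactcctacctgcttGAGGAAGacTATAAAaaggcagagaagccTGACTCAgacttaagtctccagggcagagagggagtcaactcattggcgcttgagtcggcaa
Il1b, chr2:129371090-129371389, minus strand: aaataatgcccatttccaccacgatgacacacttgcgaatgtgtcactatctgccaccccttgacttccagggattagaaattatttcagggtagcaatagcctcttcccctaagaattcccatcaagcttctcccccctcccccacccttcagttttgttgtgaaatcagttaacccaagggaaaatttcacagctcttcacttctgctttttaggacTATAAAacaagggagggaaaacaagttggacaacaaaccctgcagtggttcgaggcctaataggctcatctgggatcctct
Il1rn, chr2:24336610-24336909, plus strand: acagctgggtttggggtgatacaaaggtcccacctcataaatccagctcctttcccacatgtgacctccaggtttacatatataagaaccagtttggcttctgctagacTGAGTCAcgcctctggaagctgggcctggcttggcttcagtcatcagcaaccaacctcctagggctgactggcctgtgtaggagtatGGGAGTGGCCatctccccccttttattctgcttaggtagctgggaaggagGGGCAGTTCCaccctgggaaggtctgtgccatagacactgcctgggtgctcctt
Il33 first start, chr19:29924863-29925162, plus strand: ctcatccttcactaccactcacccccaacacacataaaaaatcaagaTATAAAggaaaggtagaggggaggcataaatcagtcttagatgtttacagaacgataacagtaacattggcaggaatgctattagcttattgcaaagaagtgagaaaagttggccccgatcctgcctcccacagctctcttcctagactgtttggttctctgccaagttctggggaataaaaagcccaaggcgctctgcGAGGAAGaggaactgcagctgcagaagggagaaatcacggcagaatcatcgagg
Il33 second start, chr19:29945540-29945839, plus strand: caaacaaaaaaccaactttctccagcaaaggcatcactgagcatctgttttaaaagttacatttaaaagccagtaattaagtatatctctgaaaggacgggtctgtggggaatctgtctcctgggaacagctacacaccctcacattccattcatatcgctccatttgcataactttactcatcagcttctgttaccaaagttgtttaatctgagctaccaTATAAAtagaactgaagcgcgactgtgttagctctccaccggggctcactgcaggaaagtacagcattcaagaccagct

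A TATAAA match began 32 bases before the start of Il1a, 31 bases before that of Il1b and 29 bases before the second start of Il33. At the first start of Il33 the TATAAA match lay farther upstream and a GAGGAAG match began 4 bases before it. Il1a also held TGANTCA at 12 bases and GAGGAAG at 41 bases before the start. The printed Il1rn window held TGANTCA at 141 bases and GGGNNNNNCC at 54 and 4 bases before the start, with no TATAAA. Il1rn has 2 further annotated starts, not printed, whose windows overlap and held the same GGGNNNNNCC match, and 1 of them held TATAAA after its start. Of 32851 mouse promoter windows of the same length, 13.6% held TATAAA, 7.81% TGANTCA, 50.8% GGGNNNNNCC and 13.6% GAGGAAG, so the GGGNNNNNCC matches in particular are common. A match describes the letters and not the binding of a factor, and counts from the 3' ends of transcripts cannot tell the starts of Il1rn or Il33 apart.

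The tables held 100673 barcodes, of which 96721 had at least 400 genes and under 20% mitochondrial counts, with 34165516 to 46742000 unique molecular identifiers (UMIs) per library. Libraries shared 21 to 64 barcode sequences per pair. Clustering without the 8 genes gave 19 classes named from marker genes, and 15 of these had at least 20 barcodes in every library and could be compared between groups. Levels are given in CPM, counts per 1000000 UMIs of the class in that library. The names fitted their markers unevenly: all 7 macrophage genes were highest in the macrophage-like class, all 7 neutrophil genes in the neutrophil-like class and 5 of 6 fibroblast genes in a fibroblast-like class with Dpt, called the Dpt fibroblast-like class. In the other fibroblast-like class 1 of 6 fibroblast genes was highest, and in T cells with Il17a and in T cells without a narrower name 1 of 6 T cell genes each. In the innate lymphoid-like cluster, natural killer or innate lymphoid genes lay 3.02 (log2) above the typical other cluster and mast cell genes 2.66. In the endothelial-like cluster, endothelial genes lay 6.28 above it and smooth muscle or pericyte genes 5.53. The class called Chil3 monocyte-like, 1 cluster led by Il1b, Chil3 and Clec4e, had 2 of 6 monocyte genes at their highest. Its monocyte genes lay on average 3.80 (log2) above the typical other cluster, less than its macrophage genes (4.48). It was set apart from the macrophage-like class by its monocyte genes, and its name is therefore uncertain. Macrophage genes summed to 5150 to 6055 CPM in that class untreated and 2545 to 2811 CPM after DSS, with 5 of 7 lower. Its neutrophil genes summed to 53.0 to 57.9 and 68.4 to 833 CPM, with 3 of 4 tested higher and Ly6g at 0; the part of either list in the values of Il1a, Il1rn, Il1r2 and Il1rap in this class was not tested. T cells without a narrower name, outside the named T classes, made up 32.0% to 44.2% of the barcodes, Treg-like cells 7.12% to 21.7% and T cells with Il17a 2.83% to 13.6%, so cells of other types were present in every library despite the enrichment. Lists of 4 values run through the libraries as wildtype 1, wildtype 2, mutant 1 and mutant 2. Differences are log2 fold changes with their standard errors (SE) from edgeR's quasi-likelihood test, and a change is called where the p adjusted over all genes tested is under 0.05.

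After DSS, Il33 and the decoy receptor Il1r2 rose in the Dpt fibroblast-like class and Il1rn in the other fibroblast-like cells. Il1r2 also rose in dendritic-like, Chil3 monocyte-like and proliferating T cells, Il1rap in Chil3 monocyte-like cells, Il18bp in macrophage-like cells, and Il1rn and Il1a in the T cells without a narrower name. In those T cells Il1a rests on 79 UMIs, and macrophage genes summed to 45.1 to 107 CPM untreated and 80.9 to 298 CPM after DSS; their part was not tested. DSS was set against untreated mice over both genotypes, 4 libraries against 4. Of the 77 combinations of a member and a class that had enough counts, 33 rose and 1 fell, 44.2% in all, where 13.1% of the 136383 combinations of all genes were called. The median of the 77 log2 fold changes was 0.69, and 61 of them lay above 0, against 50.5% of all combinations. Many of the calls were narrow: the 10 just named, of the 34, held under each alternative that gave a value, leaving out any 1 library included, and 24 were lost under at least 1. Leaving out a library leaves 1 in its group, which is then assumed to vary like the other groups. Not every alternative gave a value for each of the 10. Chil3 monocyte-like cells were not a class of their own under a coarser clustering. Dpt fibroblast-like cells were too few among the cells on the authors' own list, and DESeq2 gave no value for Il1a in the T cells. In the libraries as a whole, without classes, 2 of the 8 genes were called, Il1rn and Il33, where 23.5% of all genes were. The other 6 did not pass, with log2 fold changes from -0.52 for Il18 to 0.55 for Il1r2 and adjusted p from 0.0601 to 0.251. In such sums fewer cells of a type and less RNA per cell cannot be told apart.

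**Figure D1:**
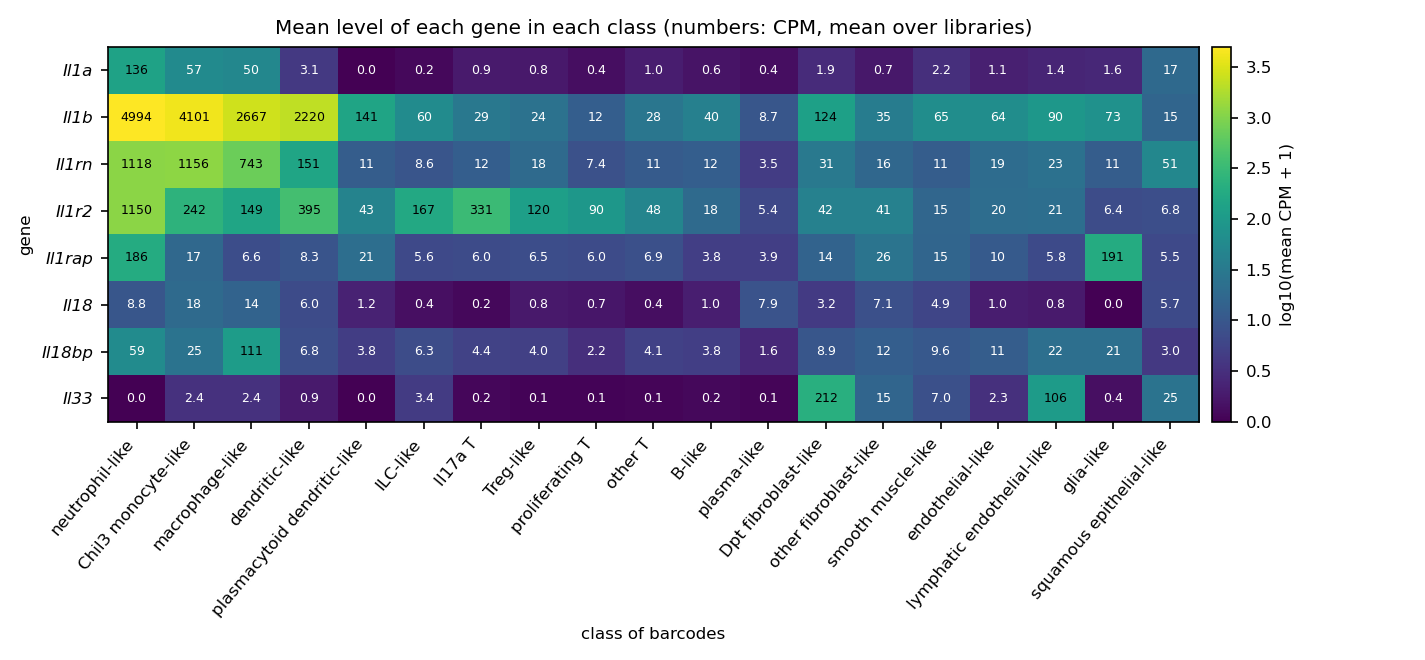
Mean level of each of the 8 genes (CPM, colour on a log scale) in 19 classes of barcodes, averaged over the libraries. Il1b, Il1rn and Il1a are highest in neutrophil-like, Chil3 monocyte-like and macrophage-like cells, Il33 in Dpt fibroblast-like and lymphatic endothelial-like cells, and Il1rap in glia-like cells.

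Il1b, the secreted ligand made by activated phagocytes, had its highest mean levels in neutrophil-like cells (4994 CPM), Chil3 monocyte-like cells (4101 CPM), macrophage-like cells (2667 CPM) and dendritic-like cells (2220 CPM). The ranges of neighbours in that order overlapped, but those of dendritic-like cells and of the next class, plasmacytoid dendritic-like cells at 141 CPM, did not. Macrophage-like cells held 45.3% of all Il1b UMIs, Chil3 monocyte-like cells 26.6% and dendritic-like cells 14.5%, while the neutrophil-like class had only 185 barcodes. In macrophage-like cells the Il1b level was 2614, 2286, 1481 and 2085 CPM in the untreated libraries and 3376, 3103, 3459 and 2929 CPM after DSS. All 4 DSS libraries lay above all untreated ones, with a log2 fold change of 0.43 (SE 0.14, adjusted p = 0.0427, edgeR). That call is weak: it was lost when any of 6 libraries was left out (adjusted p 0.0763 to 0.163) and held only without untreated mutant 2 or DSS mutant 2.

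In dendritic-like cells Il1b went from 2046, 1602, 1255 and 1796 CPM to 3151, 3020, 3359 and 1533 CPM, a log2 fold change of 0.63 (SE 0.20, adjusted p = 0.0459). The groups overlapped, since DSS mutant 2 lay below 3 of the untreated libraries, and the call was kept without that library but lost without each of the other 7 (adjusted p 0.0523 to 0.213). Chil3 monocyte-like cells, with 3516, 3750, 2357 and 3612 CPM untreated and 4875, 5243, 5804 and 3653 CPM after DSS, did not pass the test (0.44, SE 0.16, adjusted p = 0.0681). Thinned to 1000 UMIs per barcode, the share of macrophage-like cells with an Il1b UMI was 60.1% in untreated and 74.3% in DSS libraries, and that of the T cells outside the named T classes 1.39% and 4.09%. Unthinned, the macrophage-like share was 76.5% and 82.4%, at median depths of 4327.5 and 2495 UMIs. CPM and thinned shares are relative to all UMIs, so they do not give Il1b UMIs per cell. The part of the lower depth in the macrophage-like values of Il1b, Il1rn and Il18bp was not tested.

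Il1a, the cell-bound ligand, was far scarcer, with 56.9 CPM in Chil3 monocyte-like and 50.4 CPM in macrophage-like cells; the highest mean, 136 CPM in neutrophil-like cells (SD 146), rests on 32 UMIs. In Chil3 monocyte-like cells it was 35.2, 49.6, 28.8 and 52.1 CPM untreated and 85.5, 63.6, 58.5 and 81.9 CPM after DSS, without overlap. The log2 fold change was 0.65 (SE 0.20, adjusted p = 0.0369), and it kept its call only without untreated mutant 2, DSS wildtype 2 or DSS mutant 1 (adjusted p 0.0545 to 0.156 without the others). Macrophage-like cells, which held 53.1% of the Il1a UMIs, did not pass (0.37, SE 0.27, adjusted p = 0.358).

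Il1rn, the antagonist, followed the ligands it opposes in where it was found: 1156 CPM in Chil3 monocyte-like, 1118 CPM in neutrophil-like and 743 CPM in macrophage-like cells. The ranges of these 3 classes overlapped, and the macrophage-like range did not overlap that of dendritic-like cells, which came next at 151 CPM. In macrophage-like cells Il1rn was 700, 643, 310 and 477 CPM untreated and 1182, 809, 1012 and 813 CPM after DSS. The groups did not overlap, and the log2 fold change was 0.71 (SE 0.17, adjusted p = 0.0147). It was lost without untreated wildtype 2 (adjusted p = 0.0806), untreated mutant 1 (0.0593) or DSS wildtype 1 (0.0538).

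Chil3 monocyte-like cells had 1008, 1029, 842 and 792 CPM of Il1rn untreated and 1622, 1245, 1540 and 1168 CPM after DSS. The groups were again apart (0.48, SE 0.13, adjusted p = 0.0191), with the call kept only without DSS wildtype 2 or DSS mutant 2 (adjusted p 0.0507 to 0.0748 without any other). In the whole libraries Il1rn was 151, 136, 74.7 and 67.1 CPM untreated and 174, 135, 169 and 118 CPM after DSS. Those groups overlapped, the untreated mutant libraries being the lowest (0.58, SE 0.14, adjusted p = 0.0289), and this call too was kept only without DSS wildtype 2 or DSS mutant 2 (adjusted p 0.0582 to 0.120 otherwise). It was absent among the 27420 cells on the authors' own list of cells (0.03, adjusted p = 0.928). That list held 11.3% of the Chil3 monocyte-like and 36.3% of the macrophage-like barcodes, so its mix of cells differed. The part of that mix was not tested.

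The balance of antagonist and ligand was set out as Il1rn UMIs per Il1b UMI. For this ratio and those below, the exact permutation test compared mean log2 ratios, while the means and SDs printed are of the ratios themselves. In macrophage-like cells it was 0.247 ± 0.0333 (SD, n = 4 libraries) untreated and 0.295 ± 0.0389 after DSS (exact permutation test, two-sided, p = 0.143). Chil3 monocyte-like cells had 0.284 and 0.289 (exact p = 0.857) and dendritic-like cells 0.0710 and 0.0720 (exact p = 0.943). These are 3 of 6 ratios, chosen after their values were seen, and after adjustment over the 6 the p-values were 0.214, 0.943 and 0.943. No difference in this ratio beyond the spread between libraries was found, which does not show that it was equal.

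Il1rn also rose in fibroblast-like cells, from a low level. In the larger fibroblast-like class it was 7.36, 3.75, 2.81 and 5.33 CPM untreated and 27.5, 25.1, 22.4 and 35.6 CPM after DSS. Every DSS library lay well above every untreated one, and the log2 fold change, 2.58 (SE 0.29, adjusted p = 0.00186), was the largest among the 77. The make-up of that class moved as well: cluster 18 held 16 untreated and 1245 DSS barcodes, whereas cluster 10 held 3536 and 260. Within clusters 10 and 15, the ones with more untreated barcodes, Il1rn was higher after DSS (2.12, SE 0.39, adjusted p = 0.0231). This fit was not planned, and in cluster 10 only 3 of the 4 DSS libraries had at least 20 barcodes. The part of the make-up in the Il1rn change was not tested. Beside this, the summed macrophage genes of the class were 46.2 to 86.6 CPM untreated and 74.5 to 147 CPM after DSS (1 of 7 rose), and the neutrophil genes 2.22 to 8.77 and 6.89 to 104 CPM (2 of 3 tested rose); their part in the Il1rn result was not tested.

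Dpt fibroblast-like cells had 8.35, 24.1, 2.54 and 18.8 CPM of Il1rn untreated and 65.3, 41.5, 52.4 and 32.1 CPM after DSS (1.92, SE 0.38, adjusted p = 0.00327). The groups did not overlap, and the call held without any 1 library but not with DESeq2 (adjusted p = 0.0614). Il1b in the same class was uneven, 78.7, 94.9, 41.9 and 36.6 CPM untreated and 335, 87.5, 273 and 41.2 CPM after DSS. The 2 higher DSS libraries carried that difference (1.65, SE 0.48, adjusted p = 0.0287), which kept its call only without DSS wildtype 2 or DSS mutant 2 (adjusted p 0.0888 to 0.145 otherwise). The macrophage genes summed to 47.5 to 150 CPM untreated and 79.7 to 105 CPM after DSS in this class (1 of 6 tested rose), and the neutrophil genes to 1.98 to 8.89 and 10.4 to 14.0 CPM, with Ly6g at 0; their part was not tested.

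In lymphocytes Il1b and Il1rn lay far below the myeloid levels. Il1b was called in innate lymphoid-like, Il17a T, Treg-like, B-like and plasma-like cells and in the T cells outside the named T classes (log2 fold changes of 0.79 to 2.31), and Il1rn in the same classes apart from the innate lymphoid-like one (1.05 to 2.12). In B-like cells Il1rn lost its call without DSS wildtype 2 or DSS mutant 1, and Il1b without either of these or untreated wildtype 2. In Treg-like and plasma-like cells both genes kept it only without DSS wildtype 1 or DSS mutant 2. In Il17a T cells Il1b lost it without untreated wildtype 2 or untreated mutant 2. Il1rn in Il17a T cells and Il1b in the T cells outside the named classes kept it only without untreated wildtype 1, DSS wildtype 1 or DSS mutant 2, and adjusted p reached 0.371 over these fits. Among T cells outside the named T classes Il1rn was 6.21, 5.63, 3.41 and 1.30 CPM untreated and 11.4, 23.8, 23.9 and 9.33 CPM after DSS (2.12, SE 0.36, adjusted p = 0.00675), without overlap and with the call kept without any 1 library. In those T cells Il1a also passed (2.13, SE 0.41, adjusted p = 0.00934), on 79 UMIs in all. Of the 7 macrophage genes 3 rose in the same T cells and none was at 0. The macrophage list was 40.9 to 94.5 CPM untreated and 61.3 to 232 CPM after DSS in Treg-like cells (1 of 7 rose), and 39.9 to 109 and 77.0 to 249 CPM in Il17a T cells (2 of 5 tested rose). In B-like cells it was 42.2 to 111 and 95.4 to 333 CPM (3 of 4 tested rose), and in plasma-like cells 10.8 to 37.8 and 33.2 to 83.9 CPM (3 of 6 rose). The untreated and DSS ranges of this list overlapped in each of these 5 classes, and its part in the lymphocyte values of Il1b and Il1rn was not tested.

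Innate lymphoid-like cells had 35.6, 2.15, 15.2 and 6.85 CPM of Il1b untreated and 167, 163, 61.3 and 25.9 CPM after DSS (2.31, SE 0.41, adjusted p = 0.00525). DSS mutant 2 lay below untreated wildtype 1. The call held without any 1 library but was absent under a coarser clustering (0.99, adjusted p = 0.166). Neutrophil genes in that class summed to 4.30 to 13.5 CPM untreated and 5.05 to 299.7 CPM after DSS, and macrophage genes to 66.2 to 174 and 80.8 to 246 CPM with none of 4 called; their part was not tested. With the lymphoid classes set aside, a choice made after seeing the data, 19 of 48 combinations of a member and a class were called, where 12.3% of all combinations in those classes were.

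**Figure D2:**
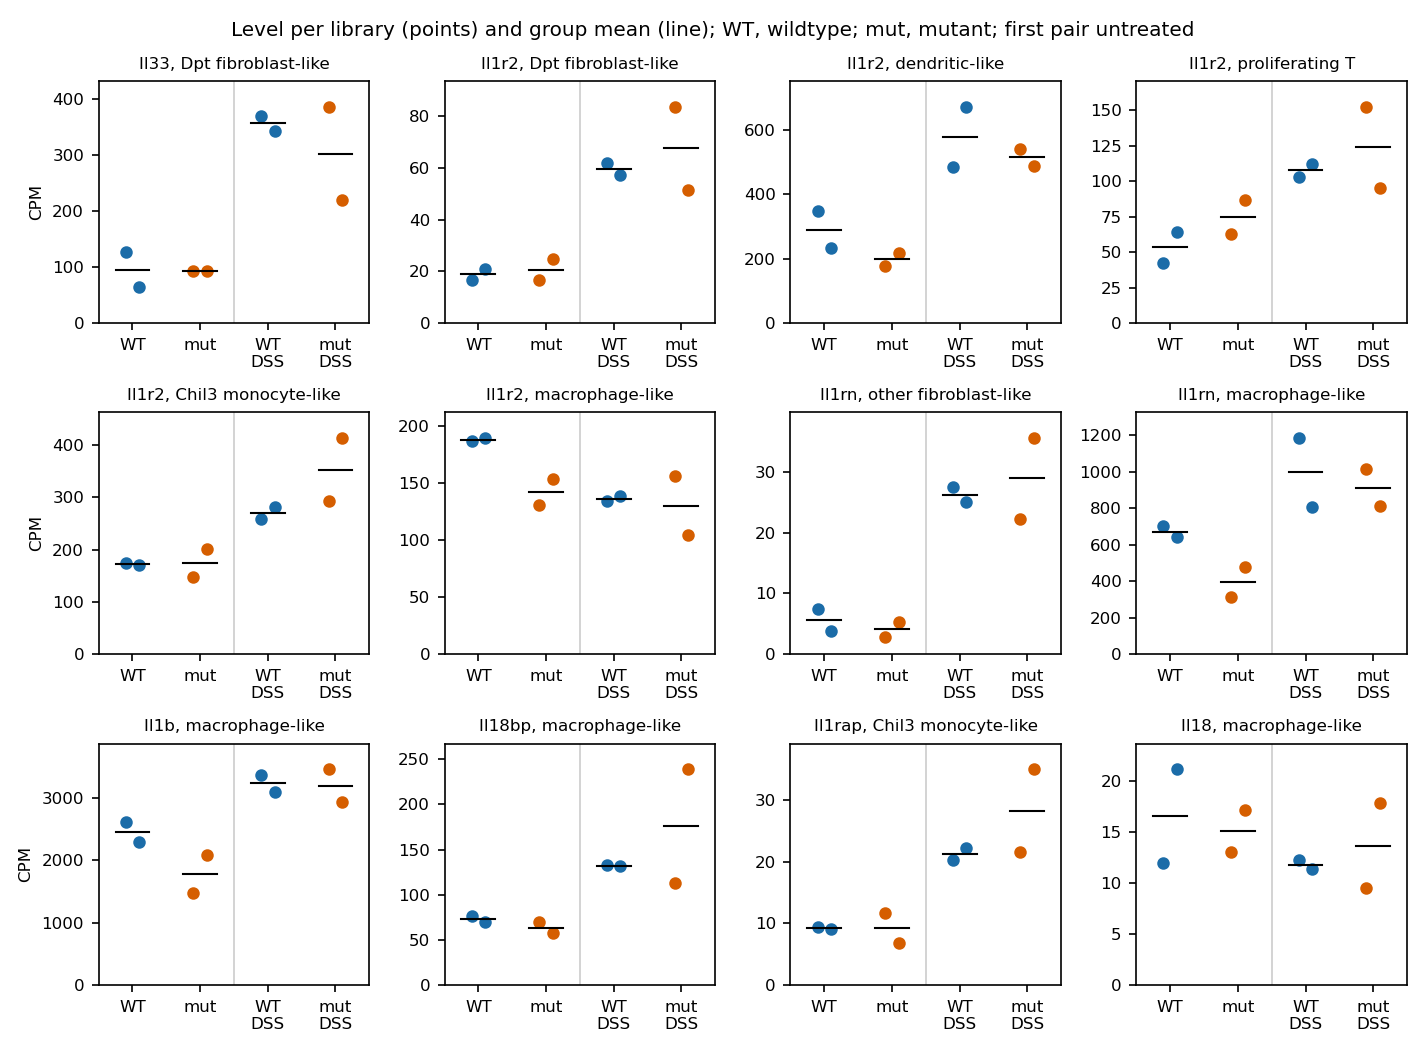
Level in each library (CPM, linear axis from 0) for 12 combinations of a gene and a class, by group, 2 libraries per group. Il33 and Il1r2 in Dpt fibroblast-like cells and Il1rn in the other fibroblast-like cells lie higher in all 4 DSS libraries than in any untreated one, while Il18 in macrophage-like cells overlaps between treatments.

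Il1r2, the decoy, differed from the ligands in being spread over myeloid cells and T cells. Its mean was 1150 CPM (SD 210.4) in neutrophil-like cells, a range apart from the next class, then 395 CPM in dendritic-like cells, 331 CPM in T cells with Il17a, 242 CPM in Chil3 monocyte-like, 167 CPM in innate lymphoid-like, 149 CPM in macrophage-like and 119.7 CPM in Treg-like cells. From dendritic-like cells downward the ranges of neighbours overlapped. The dendritic-like class was 1 cluster that held markers of both mature and conventional dendritic cells, on average 3.52 and 3.19 (log2) above the typical other cluster. The mean share of a library's Il1r2 UMIs in macrophage-like cells was 24.9% untreated and 8.74% after DSS, and in dendritic-like cells 11.6% and 15.8%. Il17a T cells held 17.1% and 14.97%, with single libraries between 4.84% and 35.5%. The Treg-like part was 7.04% and 18.04%, while Treg-like cells were 8.09% and 18.4% of the barcodes.

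In dendritic-like cells Il1r2 was 347, 232, 177 and 218 CPM untreated and 484, 670, 542 and 489 CPM after DSS. All DSS libraries were higher than all untreated ones, and the log2 fold change was 1.10 (SE 0.16, adjusted p = 0.00068719). The share of those cells with an Il1r2 UMI was 17.5% untreated and 36.9% after DSS when thinned to 1000 UMIs per barcode (52.0% and 73.3% unthinned, at median depths of 7162 and 5843.5 UMIs). In plasma-like cells, which are not known to carry this receptor, the thinned share was 0.177% and 0.803% at median depths of 8402 and 7965 UMIs. Plasma-like cells had the lowest mean Il1r2 level of the 19 classes (5.35 CPM). The thinned share was 1.79% and 2.12% in B-like and 0.66% and 2.28% in smooth muscle-like cells. T cell genes in the dendritic-like class summed to 589 to 677 CPM untreated and 728 to 1186 CPM after DSS, with 4 of 6 called up. Their part in the Il1r2 values was not tested.

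Chil3 monocyte-like cells rose in Il1r2 from 173, 170, 148 and 201 CPM to 259, 282, 293 and 413 CPM (0.70, SE 0.14, adjusted p = 0.00387). Proliferating T cells rose from 42.6, 63.9, 63.0 and 86.6 CPM to 103, 112, 152 and 95.5 CPM (0.84, SE 0.16, adjusted p = 0.00503). In both classes the groups did not overlap, and the calls held without any 1 library. The neutrophil genes that moved in the Chil3 monocyte-like class are given above. Under the coarser clustering that class was merged with macrophage-like cells, and the Il1r2 value of the merged class is given below. In the proliferating T cluster, T cell genes lay 2.72 and Treg genes 2.61 (log2) above the typical other cluster. The part of Treg-like cells in the proliferating T values was not tested.

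Macrophage-like cells went the other way, with 187, 189, 131 and 153 CPM of Il1r2 untreated and 134, 138, 156 and 105 CPM after DSS. The groups overlapped, and the log2 fold change of -0.48 (SE 0.14, adjusted p = 0.0322), the only fall called among the 77, was kept only without untreated mutant 1 or DSS mutant 1 (adjusted p 0.0699 to 0.116 otherwise). Under the coarser clustering, where macrophage-like and monocyte-like clusters merged, it was 0.02 (adjusted p = 0.926). The level in Chil3 monocyte-like cells over that in macrophage-like cells was 1.07 ± 0.192 (SD, n = 4) untreated and 2.45 ± 0.996 after DSS. Every DSS ratio was above every untreated one (exact permutation test, two-sided, p = 0.0286, the smallest that 4 against 4 can give; 0.0857 adjusted over the 6 ratios).

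Il17a T cells, whose mean Il1r2 level was the highest of the lymphoid classes, showed no call: the level was 293, 244, 356 and 434 CPM untreated and 339, 251, 461 and 273 CPM after DSS (0.01, SE 0.16, adjusted p = 0.990). Their Il1r2-positive share, thinned, was 23.6% and 21.4%. Treg-like cells, at 68.4 to 127 CPM untreated and 119.9 to 164 CPM after DSS, did not pass either (0.35, SE 0.14, adjusted p = 0.103).

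Stromal Il1r2 was lower, and it rose in 3 of the 5 stromal classes tested. In Dpt fibroblast-like cells it was 16.7, 20.9, 16.5 and 24.7 CPM untreated and 62.0, 57.1, 83.4 and 51.6 CPM after DSS, far apart (1.73, SE 0.21, adjusted p = 8.7828e-05), and the call held without any 1 library. The thinned share with an Il1r2 UMI was 1.24% (SD 0.28) untreated and 2.57% (SD 1.19) after DSS. T cell genes there summed to 280 to 522 and 462 to 661 CPM (2 of 6 rose). Monocyte genes summed to 1187 to 1348 and 1497 to 1723 CPM (3 of 5 tested rose). The part of these lists was not tested. The other fibroblast-like cells had 22.6, 22.9, 26.2 and 38.0 CPM untreated and 52.8, 38.7, 70.5 and 52.7 CPM after DSS (0.94, SE 0.16, adjusted p = 0.00968), a call lost without untreated wildtype 1 (adjusted p = 0.0561) or wildtype 2 (0.0574). It was also lost in the authors' listed cells (0.28, adjusted p = 0.398), at the coarser clustering (0.49, adjusted p = 0.160) and within clusters 10 and 15 alone (0.50, adjusted p = 0.159). Endothelial-like cells went from 12.4, 15.1, 9.49 and 14.6 CPM to 22.8, 35.2, 26.7 and 22.8 CPM (1.08, SE 0.24, adjusted p = 0.0268), kept only without untreated mutant 2, DSS wildtype 1 or DSS mutant 2 (adjusted p 0.05004 to 0.165 otherwise) and lost with DESeq2 (0.0786). None of the untreated and DSS ranges overlapped in these 3 classes. Smooth muscle-like cells did not pass, at 6.48, 15.3, 7.94 and 3.38 CPM untreated and 20.2, 19.4, 26.7 and 23.4 CPM after DSS (1.27, SE 0.35, adjusted p = 0.0733; 0.0106 without the filter on low counts), although the groups were apart. Lymphatic endothelial-like cells overlapped and did not pass either, with 16.5, 41.4, 6.54 and 5.67 CPM untreated and 23.96, 11.2, 30.04 and 32.4 CPM after DSS (0.72, SE 0.42, adjusted p = 0.426). There the log2 fold change was -0.80 in wildtype and 2.25 in mutant mice, a difference that did not pass its own test (3.05, SE 0.80, adjusted p = 0.988; 0.0167 without that filter).

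Il1rap, the accessory chain, was highest in glia-like cells (191 CPM, SD 71.2) and neutrophil-like cells (186 CPM, SD 153), with overlapping ranges, and next in the other fibroblast-like cells (25.8 CPM), which held 28.5% of its UMIs. Glia-like cells were too few to be compared between treatments. In Chil3 monocyte-like cells Il1rap was 9.48, 9.02, 11.7 and 6.75 CPM untreated and 20.4, 22.3, 21.6 and 35.0 CPM after DSS (1.27, SE 0.26, adjusted p = 0.00438). The groups were apart and the call held without any 1 library.

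Dpt fibroblast-like cells had 10.7, 6.44, 10.2 and 8.90 CPM of Il1rap untreated and 18.5, 17.8, 18.7 and 22.2 CPM after DSS, without overlap (1.15, SE 0.26, adjusted p = 0.00712). That call was lost without untreated wildtype 2 (adjusted p = 0.0502) and with DESeq2 (0.0599). Il1rap in the other fibroblast-like cells was 16.9, 17.7, 21.5 and 20.5 CPM untreated and 25.2, 35.2, 32.9 and 36.6 CPM after DSS. It passed there (0.81, SE 0.15, adjusted p = 0.0159) but only with DSS wildtype 2 and all 4 untreated libraries in the fit (adjusted p 0.0794 to 0.129 without one of them), and it was not called in the authors' listed cells (0.49, adjusted p = 0.233), at the coarser clustering (0.16, adjusted p = 0.574) or within clusters 10 and 15 (0.12, adjusted p = 0.724). The T cells outside the named classes were also called for Il1rap (0.50, SE 0.14, adjusted p = 0.0306), at 5.01 to 6.08 CPM untreated and 7.54 to 8.91 CPM after DSS, a call kept only without DSS wildtype 1 or DSS mutant 1 (adjusted p 0.0529 to 0.111 otherwise).

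Il18, the ligand of T and natural killer cells that many cells hold as an inactive precursor, was low. Its mean was 17.99 CPM in Chil3 monocyte-like, 14.3 CPM in macrophage-like and 8.76 CPM in neutrophil-like cells, the last on 4 UMIs. Next came plasma-like cells at 7.85 CPM and the other fibroblast-like cells at 7.13 CPM. All neighbours in its order overlapped. Macrophage-like cells had 12.01, 21.1, 13.01 and 17.2 CPM untreated and 12.3, 11.4, 9.49 and 17.8 CPM after DSS (-0.48, SE 0.25, adjusted p = 0.178). None of the 5 classes tested was called with edgeR or DESeq2, and none had an unadjusted p under 0.05. Columnar epithelial cells, a known source of Il18 in the colon, are not among the classes.

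Il18bp, which neutralises interleukin-18, was highest in macrophage-like cells (111 CPM), which held 58.1% of its UMIs. The level there was 76.0, 69.9, 70.04 and 57.3 CPM untreated and 133, 131, 113 and 239 CPM after DSS. The groups did not overlap, with DSS mutant 2 the highest, and the log2 fold change was 0.97 (SE 0.19, adjusted p = 0.00486), a call kept without any 1 library. Meanwhile the macrophage genes of that class fell, from 10325 to 12922 CPM in sum in untreated libraries to 7669 to 8513 CPM after DSS, with 6 of 7 called down.

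In Chil3 monocyte-like cells Il18bp was 29.8, 29.3, 23.5 and 25.1 CPM untreated and 20.4, 17.8, 19.3 and 32.6 CPM after DSS (-0.42, SE 0.20, adjusted p = 0.166). The macrophage-like level over the Chil3 monocyte-like level was 2.55 ± 0.308 (SD, n = 4) untreated and 6.78 ± 0.721 after DSS. These ratios did not overlap (exact permutation test, two-sided, p = 0.0286, the smallest possible; 0.0857 adjusted over the 6 ratios). Neither this ratio nor that of Il1r2 passed after adjustment, and both were formed from changes already seen. Treg-like cells were also called for Il18bp (1.05, SE 0.32, adjusted p = 0.0405), at 1.499 to 4.35 CPM untreated and 4.29 to 6.48 CPM after DSS. That call was kept only without DSS mutant 2, with log2 fold changes of 0.89 to 1.19 as single libraries were left out. The macrophage genes of Treg-like cells are given above, and their part in this call was not tested.

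Il33, the alarmin, was mostly stromal: Dpt fibroblast-like cells held 60.2% of its UMIs at a mean of 212 CPM, followed by lymphatic endothelial-like cells (106 CPM), squamous epithelial-like cells (24.95 CPM) and the other fibroblast-like cells (15.3 CPM). In Dpt fibroblast-like cells it was 126, 64.4, 93.4 and 93.0 CPM untreated and 369.9, 343, 385 and 220.0 CPM after DSS. The lowest DSS library was above the highest untreated one, with a log2 fold change of 1.85 (SE 0.21, adjusted p = 5.6808e-05) that held without any 1 library. The thinned share of these cells with an Il33 UMI was 8.84% (SD 2.53) untreated and 23.8% (SD 2.50) after DSS. Unthinned it was 26.9% and 57.2%, at median depths of 4201.5 and 6292.5 UMIs, and T cells outside the named classes had thinned shares of 0.005% and 0.012%.

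The Dpt fibroblast-like share of all Il33 UMIs went from 34.9% to 72.5%, although the class itself went from 2.21% to 1.63% of the barcodes. Lymphatic endothelial-like cells did not pass: Il33 was 49.4, 97.5, 95.1 and 117 CPM untreated and 91.8, 138, 93.6 and 162 CPM after DSS, overlapping (0.43, SE 0.25, adjusted p = 0.433). In the whole libraries Il33 was 6.12, 6.93, 9.69 and 5.39 CPM untreated and 12.8, 17.9, 21.8 and 13.7 CPM after DSS (1.26, SE 0.22, adjusted p = 0.0123). Those groups were apart as well, and the call was lost only without untreated wildtype 2 (adjusted p = 0.0639).

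**Figure D3:**
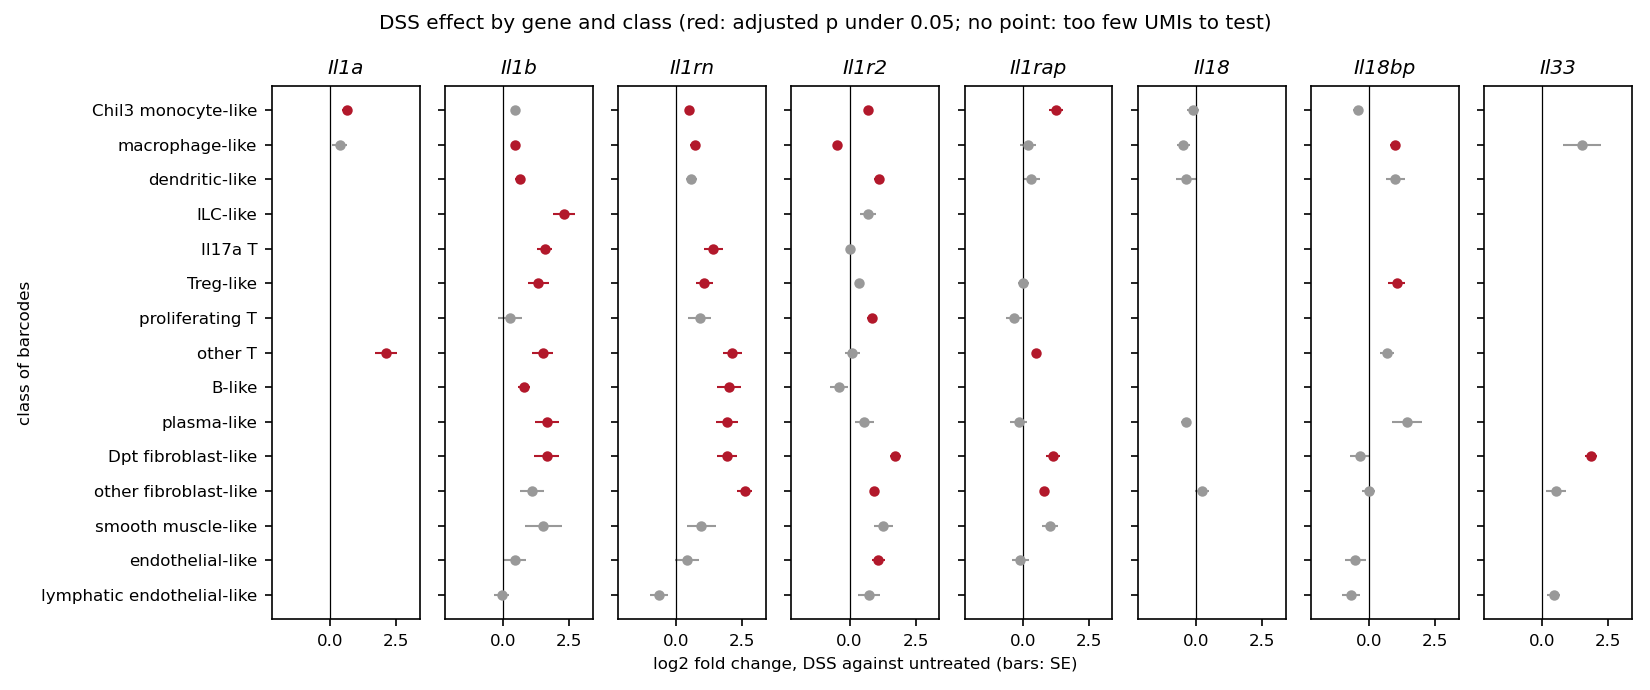
Log2 fold change of DSS against untreated over both genotypes (points, bars ± SE) for each gene and class tested, red where the adjusted p is under 0.05. Il33 at 1.85 and Il1r2 at 1.73 in Dpt fibroblast-like cells have the smallest p-values, and Il1r2 in macrophage-like cells (-0.48) is the only red point below 0.

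Genes whose class means were most alike to each member were found by Pearson's r of log2(CPM + 1) over the 19 class means among 14177 genes, a description in which the points share libraries. For Il1b these were Gpr35 (0.969), Mefv (0.967), the gene of pyrin, and Cd300c2 (0.962). For Il1rn they were Gm34084 (0.971), Slc7a11 (0.967), the cystine transporter, and Pstpip2 (0.963), and for Il1a Rhov (0.949), Ccl6 (0.947) and Slc7a11 (0.940). Il1r2 was most like Lilrb4a (0.953), Myo1f (0.935) and Bcl2a1d (0.931), and Il18bp most like Dmxl2 (0.936), Slc31a2 (0.913) and Tlr2 (0.912). Il33 was most like Flrt2 (0.949), Stc2 (0.949) and Kif26b (0.918). Il1rap (Ifit1bl2 0.897, Scrg1 0.893, Gm28592 0.890) and Il18 (Ugt1a7c 0.787, Rffl 0.783, Tlr5 0.758) had weaker nearest genes.

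The other listed genes of the interleukin-1 system gave the receiving side. Of 27 such genes 23 could be tested in the whole libraries, 10 rose and 1 fell, where 12.2% of all genes rose and 11.3% fell, and their median log2 fold change was 0.34. Over classes 46 of 270 combinations rose and 16 fell, where 6.48% and 6.63% of all combinations did. Of 6 receptor genes 4 rose there: Il1r1, the signalling receptor for both interleukin-1 ligands (0.73, adjusted p = 0.0165), Il1rl1, the interleukin-33 receptor (1.79, adjusted p = 0.0055), and Il18r1 and Il18rap, the 2 chains of the interleukin-18 receptor (0.89, adjusted p = 0.0167, and 0.51, adjusted p = 0.0421). In Dpt fibroblast-like cells, where Il33, Il1r2 and Il1rap rose, Il1r1 went from a mean of 39.2 to 191 CPM (2.33, adjusted p = 4.2275e-07). Il1rl1 was highest in Treg-like cells (143 CPM), the class that went from 8.09% to 18.4% of the barcodes, and was not called within it. It rose in the other fibroblast-like cells (7.44 to 81.7 CPM, 3.55, adjusted p = 0.00074606), macrophage-like cells (1.81 to 9.26 CPM, 2.09, adjusted p = 0.0169) and proliferating T cells (6.60 to 25.3 CPM, 1.83, adjusted p = 0.00281). In macrophage-like cells 2 of 6 T cell genes were also called up, and their part in the Il1rl1 value there was not tested. The make-up of the other fibroblast-like class moved as described above, and its part in the Il1rl1 value was not tested either. The part of Treg-like cells in the proliferating T value was not tested. The highest level of Il18r1 was in Il17a T cells (324 CPM). Of 5 other ligand genes only Il1f9, the interleukin-36 gamma gene, had enough counts to be tested, and it rose (3.12, adjusted p = 0.0041). It was highest in neutrophil-like cells, at 318 CPM, and that class was 0.0975% of the barcodes in untreated and 0.270% in DSS libraries.

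Of 8 listed genes of release and processing none rose and Nlrp1b fell in the whole libraries (-1.34, adjusted p = 0.0264), where 12.2% of all genes rose and 11.3% fell. Over classes 6 of 87 combinations rose and 14 fell, where 6.48% and 6.63% of all combinations did. Nlrp3, the sensor of an inflammasome, rose in 4 classes in which its mean stayed under 10 CPM: Treg-like cells, the T cells without a narrower name, plasma-like cells and the other fibroblast-like cells. Its highest means were 949 CPM in neutrophil-like and 459 CPM in macrophage-like cells. The macrophage genes of the 4 classes are given above, and their part in the Nlrp3 values was not tested. Nlrc4, another sensor, rose in Chil3 monocyte-like cells from a mean of 7.25 to 20.6 CPM (1.38, adjusted p = 0.00984) and in macrophage-like cells from 15.6 to 26.3 CPM (0.57, adjusted p = 0.0328). Pycard, the inflammasome adaptor, fell in 6 classes, among them macrophage-like cells, where its mean went from 133 to 61.1 CPM (-1.29, adjusted p = 0.00202). Casp1, the protease that matures interleukin-1 beta and interleukin-18, fell in 5 classes, macrophage-like cells included (-0.95, adjusted p = 0.00324). Of 8 signalling genes 5 rose in the whole libraries, where 12.2% of all genes did: Irak1 (0.45), Irak2 (0.36), Traf6 (0.40), Tollip (0.34) and Map3k7 (0.39).

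The study also asked how DSS acted in wildtype mice alone and how mutants differed. In wildtype mice, 2 libraries against 2, 6 of 77 combinations were called, all higher after DSS, where 1.1% of all combinations were. They were Il33 (1.97) and Il1r2 (1.68) in Dpt fibroblast-like cells, Il1b in innate lymphoid-like cells (2.94), Il1r2 in dendritic-like cells (0.94) and proliferating T cells (0.97), and Il1rn in the other fibroblast-like cells (2.24). Each was lost without at least 1 library: Il33 without untreated wildtype 2 (adjusted p = 0.0671), Il1r2 in Dpt fibroblast-like cells without untreated wildtype 1 or 2 (0.0868 and 0.0923), and the others without 3 to 6 libraries (adjusted p up to 0.5397). Without a wildtype library the comparison is of 1 library against 2, with the lone library's spread taken from the other groups. The Il33 log2 fold change stayed between 1.53 and 2.52 in these fits, and that of Il1r2 in Dpt fibroblast-like cells between 1.56 and 1.86. In the whole libraries none of the 8 genes was called in wildtype mice by edgeR with its filter on low counts, where 0.526% of all genes were. Without that filter edgeR called 1, DESeq2 called 1, and with the filter 1 had an unadjusted p under 0.05. The same comparison in mutant mice, which the series' design text does not name, called 18 of 77 combinations, all higher after DSS (5.21% of all combinations), and 1 of 8 genes in the whole libraries (3.0% of all genes), Il1rn (1.04, adjusted p = 0.0474). Their values without single libraries are not reported here, and the difference between the genotypes is tested below.

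With edgeR and its filter on low counts, mutant and wildtype did not differ past the threshold for any of the 8 genes. In untreated mice 0 of 8 were called in the whole libraries (0.0% of all genes) and 0 of 77 in the classes (0.0323% of all combinations), with 2 and 16 at an unadjusted p under 0.05, where 2.90% of all genes and 4.78% of all combinations were. Of the 77 log2 fold changes 18 lay above 0, against 49.97% of all combinations. After DSS 0 of 8 (0.0% of all genes) and 0 of 77 (0.0022%) were called, with 0 and 3 at an unadjusted p under 0.05 (0.985% of all genes and 2.77% of all combinations). The difference between the DSS effects of mutant and wildtype gave 0 of 8 (0.0%) and 0 of 77 (0.0169%), with 1 and 7 at an unadjusted p under 0.05 (1.18% and 4.19%). With DESeq2 the counts were 0 in each of these, apart from 1 gene in the whole libraries of untreated mice. With no filter on low counts 11 combinations were called in untreated mice, 3 after DSS and 6 for the difference between the DSS effects, and with only the 4 untreated libraries fitted 2 were. More combinations than the 77 were tested without the filter. The shares of all combinations above belong to the fits with it on all 8 libraries, and none is given for these alternatives. In the whole libraries of untreated mice the 2 genes at an unadjusted p under 0.05 were Il1rn and Il1b, both lower in mutants. Il1rn was 151 and 136 CPM in untreated wildtype and 74.7 and 67.1 CPM in untreated mutant libraries (-1.06, SE 0.20, unadjusted p = 0.00108, adjusted p = 1), and this was the gene called by DESeq2 (adjusted p = 0.00802).

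Il1b was 612 and 545 CPM in untreated wildtype and 328 and 349 CPM in untreated mutant libraries (-0.81, unadjusted p = 0.00968, adjusted p = 1). Neither pair of ranges overlapped. After DSS the Il1rn difference was -0.14, and the test of the change in that difference gave 0.93 (unadjusted p = 0.0135, adjusted p = 0.99995). Macrophage-like cells made up 11.3%, 8.18%, 10.9% and 4.95% of the untreated barcodes, and within them the Il1rn difference was -0.75 (adjusted p = 0.719). Chil3 monocyte-like cells, which held 29.9% of the Il1rn UMIs, made up 3.18% and 3.27% of the untreated wildtype and 1.74% and 1.83% of the untreated mutant barcodes; their part in the whole-library values was not tested. Il18bp in macrophage-like cells had DSS effects of 0.69 in wildtype and 1.25 in mutant mice, and their difference, 0.56, did not pass (adjusted p = 0.994).

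**Figure D4:**
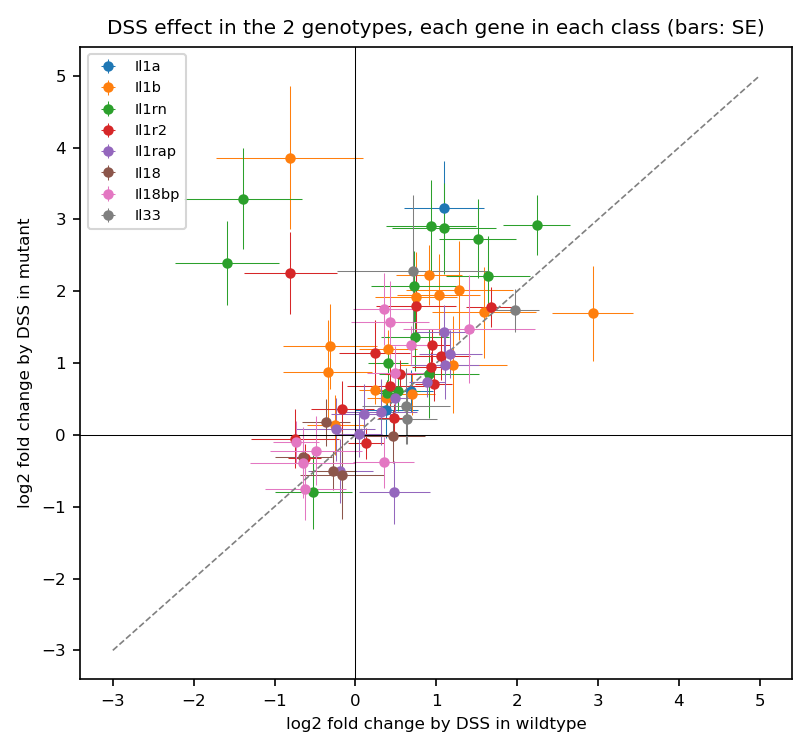
Log2 fold change of DSS against untreated in wildtype (x axis) and in mutant mice (y axis) for the 77 combinations of a member and a class (points, bars ± SE, line of equal effects). Of the 77 points, 56 lie above 0 in wildtype and 62 in mutant mice, against 50.1% and 50.4% of all combinations, and no combination passed the test of a difference between the genotypes.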

How the data were processed

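The authors deposited 1 table of raw UMI counts per library, with no normalization; Cell Ranger 3.1.0, Seurat 4.0.1 and the mm10 build are named, without their roles, per the submitters' processing notes. Barcode calling is not given in the sources used here. A deposited gene list gave the order of rows, and of 30934 gene identifiers in 1 table that a reference table held, 30468 (98.5%) had the symbol listed for their row. No columns of per-sample values were left unused.

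Barcodes with at least 400 genes and under 20% mitochondrial counts were kept, 10340 to 15370 per library with median depths of 1886 to 3019 UMIs; 1176 of 99487 distinct barcode sequences occurred in 2 or more libraries, and no doublets were removed. They were scaled to 10000 UMIs and clustered (leidenalg 0.10.2, 30 principal components, 15 neighbours, resolution 1) on variable genes without the members. Of 33 clusters 6, with 2.01% of the barcodes, stayed unnamed; the naming thresholds were chosen with the clusters in view. Counts were summed per library and class and fitted with edgeR 4.0.16 (quasi-likelihood test, TMM scaling, filterByExpr) in R 4.3.3, with 4 group means over 8 libraries and Benjamini-Hochberg adjustment over all genes tested. The fits were also run on simulated counts for the whole libraries and the macrophage-like, Dpt fibroblast-like and innate lymphoid-like classes only. The outcome is not reported here, and those counts held no change in the make-up of a class. The combinations of all genes and classes are called by each class's own adjustment. For the p-values to measure more than technical spread the 2 libraries of a group must come from different mice. The design text calls them independent biological replicates.

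All 8 members are named, with the called genes of a list of 27 other genes of the system and the 3 genes most alike to each member in class means, among genes reaching 5 CPM in 1 class. The members and lists were chosen with earlier results of these data known. Alternatives were DESeq2 1.42.0, its size factors in edgeR, no filter on low counts, at least 1000 UMIs per barcode, a resolution of 0.5, the 27420 cells the authors listed, only the 4 libraries compared, and leaving out each library. Counting intervals are not given, since tests rest on the spread between libraries.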

Additional observations from a re-analysis of the deposited data

How the results depend on the processing

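Of 565 values of the called single results under alternatives, 396 kept their call and direction, 168 kept the direction but lost the call, and 1 reversed: Il1r2 in macrophage-like cells, 0.0186 at the coarser clustering, where the macrophage-like and monocyte-like clusters merge. DESeq2's size factors in edgeR and the absence of a filter on low counts ended no single call; leaving out 1 library ended 134 of 336 and the use of only the authors' listed cells 13 of 25. For DSS over both genotypes, the count of members called in the whole libraries (2) was 4 with DESeq2, 1 in the listed cells and 0 to 2 without 1 library. The 34 called combinations of a member and a class became 17 with DESeq2, 10 in the listed cells, where 38 could be tested, 19 of 48 without the lymphoid classes and 14 to 37 without 1 library. In wildtype mice the count in the whole libraries (0) was 1 with no filter, 1 with DESeq2 and 0 without any 1 library, and the 6 combinations became 21 of 120 with no filter, 2 in the listed cells, 3 at the coarser clustering and 0 to 10 without 1 library. For mutant against wildtype in untreated mice DESeq2 called 1 in the whole libraries; among the combinations 11 were called with no filter, 2 when only the 4 libraries compared were fitted and 0 to 1 without 1 library. After DSS 3 were called with no filter, and for the difference between the DSS effects 6, with 0 to 1 without 1 library in both. Apart from the count without the lymphoid classes, the share of all combinations called is not given for these alternatives. The cause of these moves was not tested, except that fewer barcodes or libraries and other numbers of genes tested follow from the settings themselves. No paired analysis was possible because the titles carry no replicate number that libraries of different groups share. The filter on low counts left Il1a, Il33 and Il18 tested in only 3, 4 and 5 of 15 classes.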
